A study of Mus musculus with 6 samples.

Results

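The genes examined here were *Igf1*, its receptor *Igf1r* and 6 IGF-binding protein genes, *Igfbp2*, *Igfbp3*, *Igfbp4*, *Igfbp5*, *Igfbp6* and *Igfbp7*. They were taken by gene symbol from the count matrices, which list 33696 genes, and all 8 were present and passed the low filter described below. The data come from 6 single-cell RNA libraries of mouse Achilles tendon, in which a tamoxifen-induced Gli1-CreERT2 allele with the Ai9 reporter marked *Gli1*-lineage cells red. Cells were sorted into Gli1+ and Gli1- fractions from uninjured tendon and at 7 and 21 days post injury (dpi) by tenotomy, a complete cut of the tendon. All 6 groups carry the same alleles and had tamoxifen, and by design the Gli1+ gate collects descendants of *Gli1*-expressing cells, whether or not they still hold the transcript. *Gli1* itself was at 13.3 CPM (UMIs per 1000000) in Gli1+ and 8.69 CPM in Gli1- mesenchymal cells of uninjured tendon, but at 2.12 and 2.52 CPM at 7 dpi and 4.34 and 4.58 CPM at 21 dpi, so that it did not mark the sorts after injury. Cells of clusters named as immune were 53.9% of the uninjured Gli1+ library, and the other 5 libraries held 1 or 0 of them. Clusters without such a name are not counted here, among them an unnamed Gli1- cluster of 369 cells led by *Lyz2*, a myeloid marker. No other marker of an immune class was among its leading genes. These also included *Pou3f1*, *Col20a1* and *Nkain2*, the last of which also led Schwann-like Gli1- cluster 15, so that its cells are not shown to be immune. The labels give 8 mice per time point and 24 mice in all, and each sorted fraction of a time point is 1 library. With 1 library per condition there was no test between conditions, and each 95% interval below covers counting error alone.

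Insulin-like growth factor 1, the product of *Igf1*, signals through the receptor tyrosine kinase encoded by *Igf1r* to promote growth, survival and matrix synthesis, and is made locally by connective tissue cells of tendon and by macrophages. The IGF-binding proteins hold IGFs in the extracellular space with high affinity and keep them from the receptor until proteases such as PAPP-A and ADAM12 cut them. IGFBP-4 is regarded mainly as an inhibitor of IGF action, IGFBP-5 and IGFBP-3 also bind matrix, IGFBP-6 prefers IGF-II, and IGFBP-7 binds IGFs only weakly and is abundant around blood vessels.

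*Igf1* and *Igfbp4* had the closest pattern of any pair among the 8 genes, so their promoters are shown, each running from 250 bases before to 50 bases after the start site in RefSeq (GRCm38.p6). The *Igf1* sequence is at chr10:87860861-87861160 and the *Igfbp4* sequence at chr11:99040994-99041293, both on the plus strand, and capitals mark an E-box (CANNTG) or a TATA box (TATAAA) found on either strand.
Igf1: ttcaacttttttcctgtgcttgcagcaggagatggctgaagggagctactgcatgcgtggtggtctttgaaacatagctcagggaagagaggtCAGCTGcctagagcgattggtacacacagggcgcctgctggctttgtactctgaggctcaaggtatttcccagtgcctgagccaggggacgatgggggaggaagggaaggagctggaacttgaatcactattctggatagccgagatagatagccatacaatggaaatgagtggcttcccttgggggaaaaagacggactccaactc
Igfbp4: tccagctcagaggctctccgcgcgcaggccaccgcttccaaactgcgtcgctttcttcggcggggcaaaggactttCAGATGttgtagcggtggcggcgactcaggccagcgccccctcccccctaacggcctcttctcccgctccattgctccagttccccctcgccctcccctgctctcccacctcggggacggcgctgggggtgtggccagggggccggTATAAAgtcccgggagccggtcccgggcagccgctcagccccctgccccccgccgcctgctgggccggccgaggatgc
Each promoter held 1 E-box, a motif that 72.3% of the 32851 RefSeq promoters of this length hold. The *Igfbp4* promoter also held a TATA box, found in 13.6% of all promoters, which the *Igf1* promoter did not. Neither held the cyclic AMP response element half-site TGACG or the GC box GGGCGG, which 20.8% and 35.7% of promoters hold. The bases were 52.3% G or C in the *Igf1* promoter and 71.3% in that of *Igfbp4*. On the chromosome, *Igfbp2* and *Igfbp5* are adjacent protein-coding genes, and *Igfbp3* lies next to *Igfbp1*.

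After filtering and removal of likely doublets, 7057 to 10882 cells per library were kept, with a median of 4231.5 to 9649 unique molecular identifiers (UMIs) per cell. Pairs of libraries shared 27 to 75 cell barcodes, at most 0.534% of the smaller library. Per the labels, males and females were equal in number, but *Xist* and 4 Y-linked genes went against this. Y-linked UMIs without *Xist* marked 70.3% (Gli1+) and 70.2% (Gli1-) of the cells at 7 dpi, whereas *Xist* without Y-linked UMIs marked 92.5% and 90.4% at 21 dpi. The uninjured Gli1- library had no cell with *Xist* alone, and the uninjured Gli1+ library was mixed, with 69.3% *Xist* and 15.1% Y-linked cells. The uninjured fractions thus did not hold the same mix of mice. In the Gli1- libraries, sex and time at 21 dpi therefore cannot be told apart, and ratios within cells of 1 sex are given for *Igf1*, *Igfbp2*, *Igfbp3*, *Igfbp5* and *Igfbp7* where both libraries held at least 50 such cells.

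Cells were clustered within each sort and named from marker genes as tendon stem cell-like, tenocyte-like, repair fibroblast-like, chondrocyte-like or another type. Clusters are numbered separately in the Gli1+ and Gli1- libraries, and neither the 8 genes nor the markers took part in the clustering. Mesenchymal cells, meaning the tendon and repair classes plus unnamed clusters high in *Pdgfra*, *Prrx1*, *Col1a1* and *Dcn*, numbered 2486 (uninjured), 6977 (7 dpi) and 8069 (21 dpi) for the Gli1+ sort and 5835, 8006 and 7535 for the Gli1- sort. Their make-up differed: stem-like cells were 57.9% and 60.7% of them in uninjured Gli1+ and Gli1- tendon, repair fibroblast-like cells 55.5% and 40.5% at 7 dpi, and tenocyte-like cells 62.3% and 64.6% at 21 dpi. Of the mesenchymal Gli1- cells, 34.0%, 47.6% and 24.7% belonged to unnamed clusters. A pooled level thus moves both with the make-up of the pool and with the level inside each type, and both are given for the 8 genes. Levels are UMIs per 1000000 UMIs of the pool (CPM), and since counts come from transcript 3′ ends without scaling by length, they are compared between samples of 1 gene and not between genes. Another scaling, TMM, adds 0.31 (7 dpi) and 0.48 (21 dpi) to every Gli1+ log2 ratio over uninjured tendon, and 0.11 and 0.18 to the Gli1- ratios, so that directions below are relative to total UMIs.

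To see which cells contributed each transcript, the UMIs of each library were divided among cell classes. Mesenchymal cells held 88.2% to 99.1% of all *Igf1* UMIs in the 6 libraries and 93.4% to 99.1% of *Igfbp6* UMIs. They held 57.8% to 91.2% of *Igfbp7* UMIs, with endothelial cells holding up to 28.8% and pericytes or smooth muscle up to 17.4%. *Igf1r* UMIs were 64.9% to 91.4% mesenchymal in 5 libraries, and in the uninjured Gli1+ library, where immune cells were 53.9% of cells, 28.6% were mesenchymal and 59.1% immune. *Igfbp2* was epidermal to a large part in the Gli1+ libraries, where 88.9%, 35.7% and 62.3% of its UMIs lay in epidermal cells. In the Gli1- library at 21 dpi, 37.4% of them did, in 0.994% of the cells.

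In mesenchymal cells, the 8 genes did not move as a block after injury. A gene was called different when its level was at least 2-fold higher or lower, and the same rule over the 10685 genes with a mean of at least 5 CPM in the 6 pools gave the background. *Igfbp2* passed this low filter only through the injured Gli1+ pools, at 25.1 CPM (7 dpi) and 17.3 CPM (21 dpi). In the other pools it was at 0.0552 to 5.36 CPM. A gene that passes in this way is bound to differ between pools, so that its calls were in part fixed by the filter. In Gli1+ cells at 7 dpi, 3 of 8 members were higher (*Igf1*, *Igfbp2*, *Igfbp4*) against 10% of all genes, and 3 were lower (*Igfbp3*, *Igfbp5*, *Igfbp6*) against 14.8%. In Gli1- cells at 7 dpi, the same 3 were higher against 11% of all genes, and *Igfbp3* and *Igfbp6* were lower against 11.2%. At 21 dpi, *Igf1*, *Igfbp2* and *Igfbp4* were again higher in Gli1+ cells, against 5.83% of all genes, and no member was lower, against 12.1%. In Gli1- cells at 21 dpi, these 3 and *Igfbp5* were higher, against 9.57% of all genes, and no member was lower, against 11.1%. Each sort's 7 dpi and 21 dpi ratios share 1 uninjured library. The background depended on the scaling. With TMM, 16.8% of all genes were higher and 9.41% lower in Gli1+ cells at 7 dpi, 15.3% and 5.11% at 21 dpi, and for Gli1- cells 12.9% and 9.71%, then 12.7% and 8.58%. Of the members, *Igfbp5* in Gli1+ cells at 7 dpi was then within 2-fold, and no other member call over uninjured tendon was lost or gained. The median log2 ratio of the 8 members was -0.31 and 0.33 at 7 and 21 dpi in Gli1+ cells and 0.41 and 0.89 for the Gli1- sort, beside medians over all genes of -0.14, -0.24, -0.04 and -0.09.

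**Figure D1:**
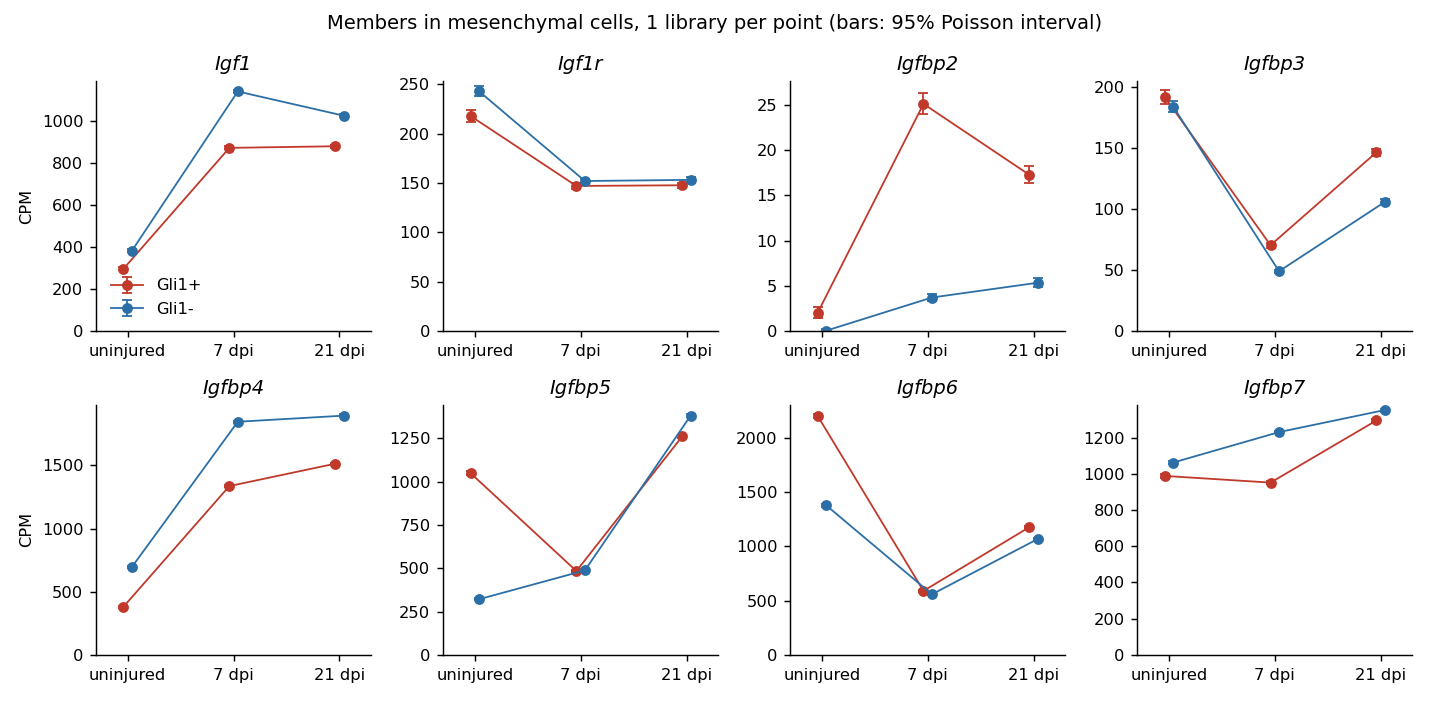
Level of each gene in pooled mesenchymal cells (CPM, y axis from 0) at the 3 time points, with Gli1+ in red and Gli1- in blue, 1 library per point and 95% Poisson intervals as bars. *Igf1* and *Igfbp4* lie higher at 7 and 21 dpi than in uninjured tendon in both sorts, *Igf1r* lies lower, *Igfbp3* and *Igfbp6* are lowest at 7 dpi, and *Igfbp5* starts at 1049 CPM in Gli1+ and 321 CPM in Gli1- cells.

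**Figure D2:**
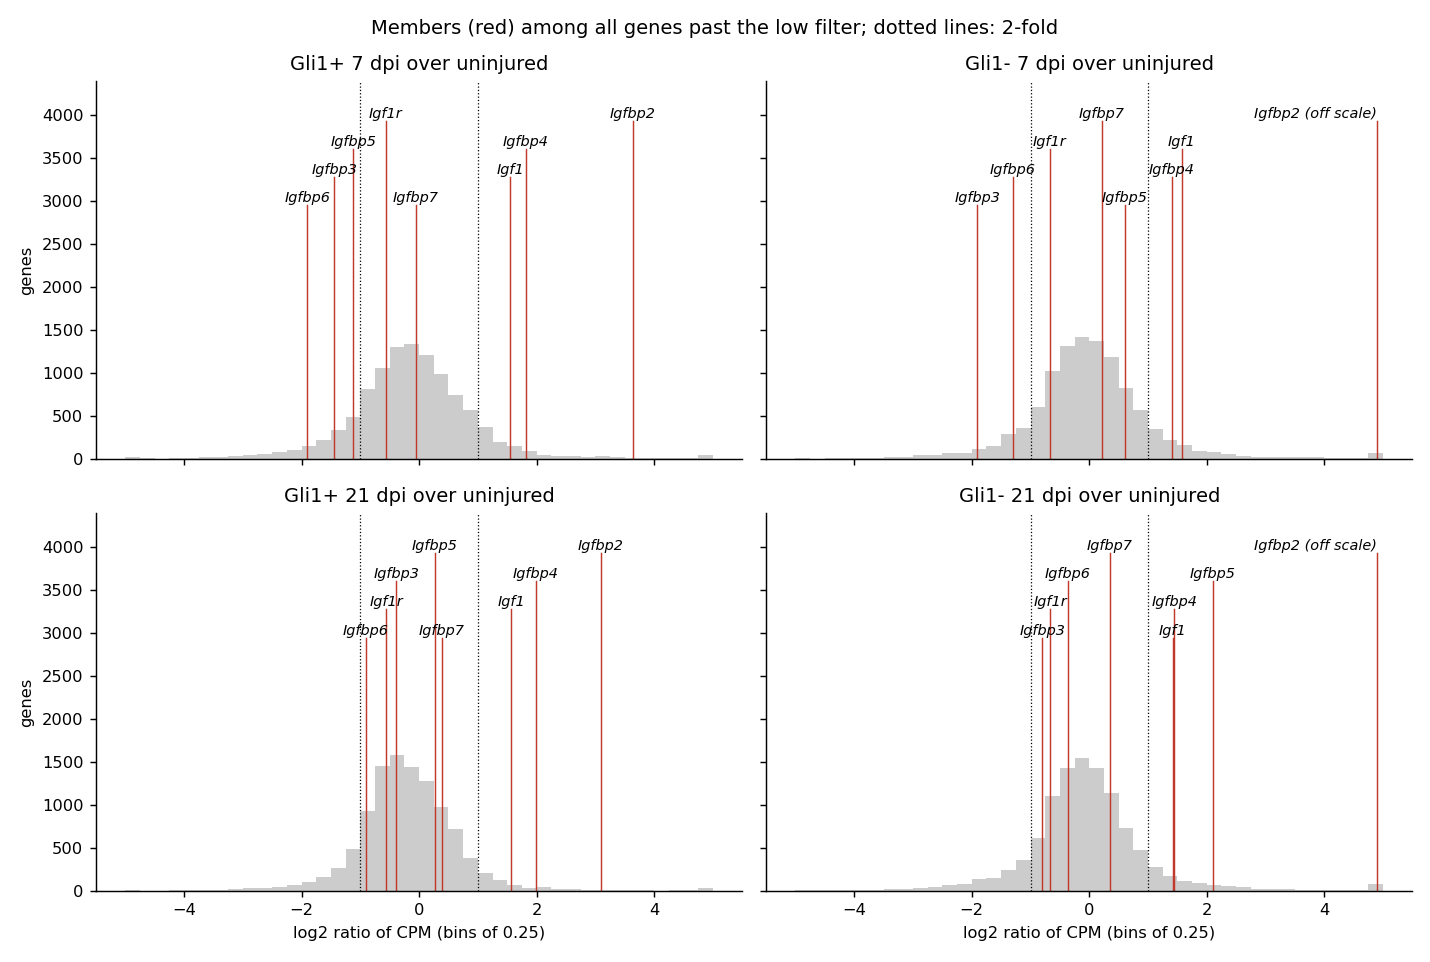
Histogram of the log2 ratio over uninjured tendon for the 10685 genes past the low filter (grey, bins of 0.25), with the 8 members as red lines and 2-fold as dotted lines, in 4 comparisons of mesenchymal cells. *Igf1*, *Igfbp2* and *Igfbp4* lie past 2-fold on the right in all 4 panels, and *Igfbp2* in Gli1- cells lies off the scale at 6.07 and 6.60.

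*Igf1*, the ligand, was higher after injury in both sorts. Gli1+ mesenchymal pools held 296 CPM uninjured, 870.2 CPM at 7 dpi and 878 CPM at 21 dpi, and Gli1- pools held 382, 1138 and 1023 CPM. Both injured libraries of each sort were about equally high, above an uninjured library that was low. For Gli1+ the log2 ratio over uninjured tendon was 1.56 at 7 dpi (95% interval 1.52 to 1.59) and 1.57 at 21 dpi (1.53 to 1.60). At a clustering resolution of 0.3, where the mesenchymal rule kept 2251 of 8069 Gli1+ cells at 21 dpi, the latter was 0.91, within 2-fold. For Gli1- the ratio was 1.58 (1.55 to 1.60), then 1.42 (1.40 to 1.45). Among the cells of 1 sex the value was much the same: 1.55 at 7 dpi for Y-linked cells of both sorts, and 1.56 at 21 dpi for *Xist* cells of the Gli1+ libraries. With every cell thinned to 2000 UMIs, an *Igf1* UMI was found in 32.8%, 65.4% and 59.2% of Gli1+ and 39.6%, 70.2% and 64.5% of Gli1- mesenchymal cells, and in 0.374% (exact binomial 95% interval 0.187 to 0.668) of T cell-like cells of uninjured Gli1+ tendon. The interval of the lowest mesenchymal share, 32.8%, ran from 31.0% to 34.7%. The median depth was 8603, 9040, 8770, 5707, 11352 and 8918 UMIs in these 6 pools and 7706.5 in the T cell-like cells, and thinning left out 24, 245, 257, 206, 102 and 245 mesenchymal cells and 20 T cell-like cells. The unthinned shares were 63.0%, 88.1%, 81.3%, 63.1%, 93.4%, 84.9% and 1.89%.

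By type, *Igf1* was highest in a fibroblast cluster that appeared at 7 dpi. Gli1- cluster 5, unnamed and led by *Sfrp2*, *Klk1* and *Pgr*, held *Igf1* at 1775 CPM at 7 dpi, and the stem cell-like Gli1+ cluster 2, also led by *Klk1* and *Pgr*, held it at 1168 CPM. Repair fibroblast-like cells, whose leading genes included *Tnc* and *Tnn*, were lower at 799 (Gli1+) and 917 CPM (Gli1-). Tenocyte-like cells of the Gli1+ sort held *Igf1* at 251 CPM uninjured, 758 CPM at 7 dpi and 1078 CPM at 21 dpi, and those of the Gli1- sort at 354, 935 and 1149 CPM. Most tenocyte-like Gli1+ cells lay in cluster 6 in uninjured tendon, cluster 12 at 7 dpi and cluster 0 at 21 dpi, so that this class is not the same set of clusters at each time. In uninjured Gli1+ tendon, myeloid-like cells held 198 CPM, the highest outside mesenchyme, and T cell-like cells 2.57 CPM. Blood endothelial-like cells ranged from 16.2 to 165 CPM over the 6 libraries, highest in each sort at 7 dpi. Whether free RNA of mesenchymal cells contributed to these endothelial values was not tested.

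To separate level from make-up, mesenchymal clusters with at least 50 cells both in uninjured tendon and at a later time were followed, 6 of them to 7 dpi and 8 to 21 dpi. The clusters of 1 sort share their libraries and are not replicates. *Igf1* was higher at 7 dpi in 6 of 6 clusters, with intervals above 0 and log2 ratios of 0.75 to 1.34. Of these, 5 were Gli1- clusters, and the Gli1+ sort had only cluster 18, with 222 cells uninjured and 138 at 7 dpi. Of all 10685 genes, 2.54% were higher in all 6 in this way. At 21 dpi *Igf1* was higher in 7 of 8 clusters (up to 1.52) and lower in Gli1- cluster 3, led by *C7* and *Inmt*, at -0.11 (-0.19 to -0.03). That cluster held *Igf1* at 538, 904 and 499 CPM over the 3 times. The ratio within clusters was smaller than that of its sort's pool in each case but Gli1- cluster 0 at 21 dpi (1.52).

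**Figure D3:**
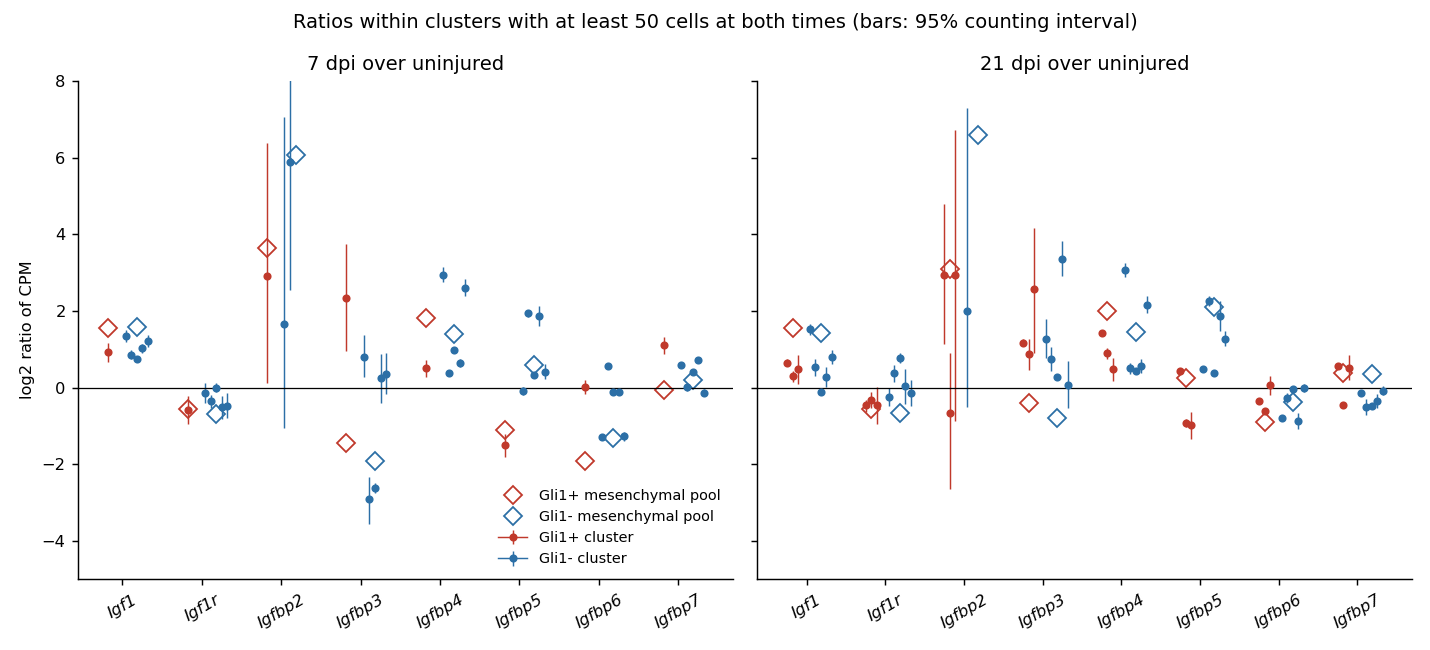
Log2 ratio of CPM over uninjured tendon for each gene within mesenchymal clusters that had at least 50 cells at both times (points, with 95% counting intervals) and in the whole mesenchymal pool (diamonds), at 7 dpi on the left and 21 dpi on the right, Gli1+ in red and Gli1- in blue. The *Igf1* and *Igfbp4* points lie above 0 in all 6 clusters at 7 dpi, the *Igfbp3* pool diamonds lie below 0 at 21 dpi while its points there lie above, and the *Igfbp2* intervals reach past the axis.

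*Igf1r*, the receptor, was lower after injury by less than 2-fold. Gli1+ pools held 218 CPM uninjured, 147 CPM at 7 dpi and 148 CPM at 21 dpi, and Gli1- pools 243, 152 and 153 CPM. The uninjured library was the high one in each sort, and the 2 sorts were close at each time. The Gli1+ log2 ratio was -0.57 at 7 dpi (-0.62 to -0.52) and -0.56 at 21 dpi (-0.61 to -0.51), or -0.26 and -0.08 by TMM. The Gli1- ratio was -0.68 (-0.71 to -0.64), then -0.67 (-0.71 to -0.62). Within clusters at 7 dpi, the interval lay below 0 in 4 of 6 and held 0 in Gli1- clusters 0 and 3, and at 21 dpi it lay above 0 in 2 and below 0 in 2 of 8. The highest ratio was 0.77 (0.65 to 0.89), in Gli1- cluster 3 at 21 dpi.

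The receptor was also found well outside mesenchyme. In uninjured Gli1+ tendon the T cell-like cluster 7, led by *Scart1*, *Il17a* and *Il23r*, held *Igf1r* at 826 CPM, whereas the 3 other T cell-like clusters held 213, 62.7 and 43.6 CPM. Tendon cells of the same library held 171 CPM (tenocyte-like cluster 6) and 236 CPM (stem cell-like cluster 3). Pericyte or smooth muscle-like cells held 368 CPM uninjured, 188 CPM at 7 dpi and 168 CPM at 21 dpi for Gli1+, and 252, 143 and 177 CPM for Gli1-. Blood endothelial-like cells held 286, 133 and 154 CPM for Gli1+, and 326, 171 and 152 CPM for Gli1-. Each of these classes, like the mesenchymal pool, was highest in uninjured tendon. In the Gli1- sort both classes changed make-up with time: endothelial cluster 1 held 3311 of 3441 cells uninjured but 831 of 1624 at 21 dpi, beside 793 in cluster 7, and pericyte cluster 8 held 610 of 877 uninjured cells, whereas cluster 6 held 938 of 1030 at 21 dpi. Within clusters, *Igf1r* went from 342 CPM uninjured to 250.2 CPM at 21 dpi in cluster 1 and from 247 to 174 CPM in cluster 6, with intervals that did not overlap. They overlapped in cluster 7, from 159 to 129 CPM, and in cluster 8, from 255 CPM (233 to 279) to 284 CPM (217 to 366).

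*Igfbp4*, an inhibitory binding protein, followed the ligand most closely. Gli1+ pools held 381 CPM uninjured, 1336 CPM at 7 dpi and 1513 CPM at 21 dpi, and Gli1- pools 696, 1845 and 1893 CPM. Both later libraries were high in each sort, and the Gli1- library was above the Gli1+ library at every time. Over uninjured tendon, the Gli1+ log2 ratio was 1.81 at 7 dpi (1.78 to 1.84) and 1.99 at 21 dpi (1.96 to 2.02). Gli1- ratios were 1.41 (1.39 to 1.43), then 1.44 (1.42 to 1.46). Within clusters, *Igfbp4* was higher in 6 of 6 at 7 dpi (0.39 to 2.95) and in 8 of 8 at 21 dpi (0.43 to 3.06), with every interval above 0. At 21 dpi, 0.328% of all genes were higher in all 8 clusters, and *Igfbp4* was the single member among them. Tenocyte-like cells of the Gli1+ sort held 222 CPM uninjured, 1171 CPM at 7 dpi and 1846 CPM at 21 dpi, a log2 ratio of 3.06 (2.98 to 3.13) for the last. Those of the Gli1- sort held 198, 1643 and 2088 CPM, a log2 ratio of 3.40 (3.26 to 3.54). The class changed clusters in this sort too, with 209 of 284 uninjured cells in cluster 11 and 4669 of 4866 cells at 21 dpi in cluster 0. Within tenocyte-like clusters the 21 dpi ratio was 0.89 (Gli1+ cluster 6), 2.16 (Gli1- cluster 11) and 3.06 (Gli1- cluster 0). Among clusters of at least 50 cells at 7 dpi, *Igfbp4* was highest at 3389 CPM in Gli1- cluster 5 and, of the Gli1+ sort, at 2122 CPM in cluster 2, each also the cluster of its sort with the highest *Igf1*. Across 40 profiles, each a mesenchymal cluster of at least 50 cells in 1 library, the Pearson correlation of *Igf1* with *Igfbp4* on log2(CPM + 10) values was 0.76, and the next highest value between any 2 members was 0.49, for *Igfbp2* and *Igfbp3*. Profiles of 1 library share its depth and background, so this is given as a description.

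*Igfbp2*, a binding protein that also carries an integrin-binding motif, was scarce in uninjured mesenchyme and higher after injury. Gli1+ pools held 2.02 CPM uninjured (49 UMIs), 25.1 CPM at 7 dpi and 17.3 CPM at 21 dpi, and Gli1- pools 0.0552 CPM (2 UMIs), 3.72 and 5.36 CPM. Gli1+ log2 ratios were 3.63 at 7 dpi (3.22 to 4.07) and 3.09 at 21 dpi (2.68 to 3.54). Gli1- ratios were 6.07 (4.21 to 9.13), then 6.60 (4.74 to 9.65), with intervals that rest on the 2 uninjured UMIs. Within followed clusters, the interval lay above 0 in 2 of 6 at 7 dpi (1.66 to 5.88) and in 1 of 8 at 21 dpi (-0.65 to 2.95). It lay below 0 in none, and clusters with 0 UMIs at either time have no ratio. Within Y-linked cells the Gli1+ ratio at 7 dpi was 4.91 (3.68 to 6.54), from 0.839 CPM uninjured (5 UMIs) to 25.2 CPM, and within *Xist* cells that at 21 dpi was 2.68 (2.24 to 3.16). Even at its highest the gene was rare: with cells thinned to 2000 UMIs, 3.22% of Gli1+ mesenchymal cells at 7 dpi had a UMI (interval 2.81 to 3.67%, 9.36% unthinned), 0.617% or fewer did in the Gli1- libraries, and 0 of 5629 did in the uninjured Gli1- library, which at this depth allows up to 0.0533% of cells with a UMI and sets no limit on cells that express the gene. Unthinned, 0.0343% of that pool had one. Of the T cell-like cells of uninjured Gli1+ tendon, 0.169% had an *Igfbp2* UMI unthinned, and 0 of 2944 did after thinning. The 6 epidermal markers summed to 2124 CPM in the Gli1+ mesenchymal pool at 7 dpi and to 12.5 to 191 CPM in the other 5 pools, with up to 2 of the 6 at 0. Epidermal-like cells of that 7 dpi library held the markers at 30113 CPM and *Igfbp2* at 56.1 CPM, and at this proportion the marker RNA in the mesenchymal pool would carry 3.95 of its 25.1 CPM. At 21 dpi the same calculation gave 2.22 of 17.3 CPM. It takes 1 epidermal profile per library, although the epidermal clusters differed in *Igfbp2*, and how much of the gene came from epidermal RNA was not tested. Epidermal-like cells themselves held 100.2 CPM uninjured, 56.1 CPM at 7 dpi and 208 CPM at 21 dpi for Gli1+, and 211 CPM at 21 dpi for Gli1-. The Gli1+ class mixed cluster 4 (39, 1083 and 340 cells over the 3 times) with clusters 11 (116, 267 and 350) and 14 (22, 487 and 71). From 7 to 21 dpi *Igfbp2* went from 76.8 to 304 CPM in cluster 4, from 12.2 to 73.2 CPM in cluster 11 and from 25.9 to 72.7 CPM in cluster 14.

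Among mesenchymal clusters of at least 50 cells, *Igfbp2* had its highest level in Gli1+ cluster 20, an unnamed cluster led by *Gpc5*, *Hpse2* and *Coch*, at 114 CPM (58 cells) at 7 dpi and 317 CPM (237 cells) at 21 dpi. Most of its UMIs lay in larger classes: of 1744 in the Gli1+ mesenchymal pool at 7 dpi, repair fibroblast-like cells held 1518 and cluster 20 held 30, and of 1365 at 21 dpi, tenocyte-like cells held 661 and cluster 20 held 369. At 7 dpi repair fibroblast-like cells of the Gli1+ sort held 31.2 CPM and those of the Gli1- sort 5.11 CPM, and stem cell-like cells 5.75 CPM and 2.75 CPM. Gli1+ repair cells thus held more *Igfbp2* than Gli1- repair cells at 7 dpi, whereas at 21 dpi the order was 6.71 CPM (103 cells) against 25.6 CPM (254 cells).

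*Igfbp3*, the main carrier of IGFs in serum, was lower in the injured pools, while at 21 dpi most followed clusters were above their uninjured level. Gli1+ pools held 192 CPM uninjured, 70.4 CPM at 7 dpi and 146 CPM at 21 dpi, and Gli1- pools 184, 49.1 and 106 CPM, lowest at 7 dpi in both sorts. The Gli1+ log2 ratio was -1.45 at 7 dpi (-1.50 to -1.39) and -0.39 at 21 dpi (-0.44 to -0.34). The Gli1- ratio was -1.91 (-1.96 to -1.85), then -0.80 (-0.84 to -0.75). At 21 dpi, 7 of 8 clusters had a ratio with an interval above 0, and none had one below 0 (lowest 0.08, highest 3.36). At 7 dpi, 2 of 6 clusters were above 0 and 2 below, with a range from -2.91 to 2.33. The Gli1+ value at 7 dpi was -0.93 within Y-linked cells, -0.39 at a clustering resolution of 1.0 and 0.07 over all kept cells of the library, and that at 21 dpi was -0.66 within *Xist* cells and 0.09 with TMM scaling. Its level varied widely between clusters. Stem cell-like Gli1+ cluster 3, led by *Inmt*, *Myoc* and *C7*, held 294 CPM in uninjured tendon, with 1421 of the 2486 mesenchymal cells, and 664 CPM at 21 dpi with 441 cells. Gli1- cluster 3, led by *C7* and *Inmt*, held 409, 66.2 and 496 CPM over the 3 times with 1514, 1496 and 866 cells. In both sorts the *C7* and *Inmt* cells were thus above their uninjured level at 21 dpi while their number was smaller.

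Other sites of *Igfbp3* were Gli1+ cluster 20, at 1086 CPM at 7 dpi and 1839 CPM at 21 dpi, and the vessels. Blood endothelial-like cells held 176 CPM uninjured, 240.3 CPM at 7 dpi and 287 CPM at 21 dpi for Gli1+, and 222, 184 and 526 CPM for Gli1-. Their log2 ratio at 21 dpi was 0.70 (0.51 to 0.89) for Gli1+ and 1.25 (1.17 to 1.32) for Gli1-, opposite to the mesenchymal pools. The Gli1- class changed make-up, as given for *Igf1r*, and within it the level was 242 CPM uninjured and 296 CPM at 21 dpi in cluster 1 and 21.8 and 580.4 CPM in cluster 7. In Gli1- tissue at 21 dpi, endothelial cells held 37.6% of all *Igfbp3* UMIs. Epidermal-like cells at 7 dpi held 162 CPM and 35.6% of the *Igfbp3* UMIs of the Gli1+ library.

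*Igfbp5*, a matrix-binding protein common in tendon and bone, was the gene on which the sorts differed most in uninjured tendon apart from *Igfbp2*. This order holds for the main clustering, since the difference was well within 2-fold at resolution 1.0, as given below. Gli1+ pools held 1049 CPM uninjured, 484 CPM at 7 dpi and 1262 CPM at 21 dpi, and Gli1- pools 321, 488 and 1382 CPM. The Gli1+ pools were lowest at 7 dpi and the Gli1- pools were lowest uninjured, and after injury the sorts were close. For Gli1+ the log2 ratio was -1.12 at 7 dpi (-1.14 to -1.09) and 0.27 at 21 dpi (0.25 to 0.29). For Gli1- it was 0.60 (0.57 to 0.63), then 2.10 (2.08 to 2.13). The Gli1+ value at 7 dpi was within 2-fold with TMM scaling (-0.81) and at resolution 1.0 (-0.27), and the Gli1- value at 7 dpi was -0.13 with 20 components. Within cells that had Y-linked and no *Xist* UMIs, the 7 dpi ratios were -1.13 and 0.46. By type, stem cell-like cells held 1121 CPM uninjured, 979.6 CPM at 7 dpi and 2305 CPM at 21 dpi for Gli1+, and 277, 1060 and 1328 CPM for Gli1-. Tenocyte-like cells held 1124, 397 and 1178 CPM for Gli1+, and 624, 833 and 1557 CPM for Gli1-. The uninjured stem cell-like classes were formed by different clusters, mainly Gli1+ cluster 3 (*Inmt*, *Myoc*) and Gli1- cluster 2 (*Rtl4*, *Pcsk6*). The Gli1+ class also changed over time, to cluster 2 at 7 dpi (2022 of 2036 cells) and mainly cluster 5 at 21 dpi (1145 of 1599 cells), and within cluster 3 *Igfbp5* was at 1085 CPM uninjured and 1463 CPM at 21 dpi, a log2 ratio of 0.43 (0.38 to 0.49). The other 2 followed Gli1+ clusters were lower at 21 dpi, at -0.92 (-1.02 to -0.82) in cluster 6 and -0.97 (-1.33 to -0.63) in cluster 18. Over both sorts, the interval lay above 0 in 6 and below 0 in 2 of 8 clusters at 21 dpi, and above 0 in 4 and below 0 in 1 of 6 at 7 dpi. Among mesenchymal clusters of at least 50 cells at 21 dpi, the highest level was 2493 CPM, in the stem cell-like Gli1+ cluster 5 led by *Sema3e* and *Islr2*. Repair fibroblast-like cells were low at 7 dpi, at 338 and 275 CPM. Pericyte or smooth muscle-like cells were lower at 21 dpi than uninjured, at 424 against 1196 CPM for Gli1+ and 521 against 979 CPM for Gli1-. The Gli1- clusters of this class, whose shares changed with time, went opposite ways, from 1859 to 518 CPM in cluster 6 and from 326 to 625 CPM in cluster 8.

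*Igfbp6*, the binding protein that prefers IGF-II, was lowest at 7 dpi. Gli1+ pools held 2204 CPM uninjured, 589.8 CPM at 7 dpi and 1178 CPM at 21 dpi, and Gli1- pools 1379.6, 559 and 1069 CPM. Uninjured tendon was highest in both sorts, and at 21 dpi the level lay between the other two. For Gli1+ the log2 ratio was -1.90 at 7 dpi (-1.92 to -1.88) and -0.90 at 21 dpi (-0.92 to -0.89). For Gli1- it was -1.30 (-1.32 to -1.29), then -0.37 (-0.38 to -0.35). At 7 dpi repair fibroblast-like cells held 304 (Gli1+) and 260.4 CPM (Gli1-), whereas stem cell-like cells held 1349 and 1969 CPM. Within clusters the 7 dpi ratio was below 0 in 4 of 6, down to -1.28, and above 0 in 1, Gli1- cluster 2 at 0.55 (0.50 to 0.61). Tenocyte-like cells held 2171 CPM uninjured, 750.4 CPM at 7 dpi and 1274 CPM at 21 dpi for Gli1+, and 1944, 911 and 1472 CPM for Gli1-. At 21 dpi the unnamed clusters led by *Saa3* and *Mmp13*, Gli1+ cluster 13 and Gli1- cluster 9, were low at 296 and 266 CPM. Among mesenchymal clusters of at least 50 cells in a library, the highest level was in the small Gli1+ cluster 23, led by *Luzp2* and also by *Itih5* and *Msln*, at 5335 CPM (105 cells) at 7 dpi and 5508 CPM (95 cells) at 21 dpi.

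*Igfbp7*, the weak IGF binder of vessel walls, varied least among the 8 genes across the mesenchymal pools. Gli1+ pools held 988 CPM uninjured, 951 CPM at 7 dpi and 1294 CPM at 21 dpi, and Gli1- pools 1062, 1230.1 and 1352 CPM, and no ratio reached 2-fold. The pericyte or smooth muscle markers, all of which had UMIs in each pool, summed to 75.9, 1163 and 379 CPM in the Gli1+ and 265, 913 and 347 CPM in the Gli1- mesenchymal pools, and their part in these levels was not tested. For Gli1+ the log2 ratio was -0.06 at 7 dpi (-0.08 to -0.03), which TMM scaling turned to 0.25, and 0.39 at 21 dpi (0.37 to 0.41). For Gli1- it was 0.21 (0.20 to 0.23), then 0.35 (0.33 to 0.37). Within Y-linked cells the 7 dpi ratios were -0.35 and 0.22, and within *Xist* cells the Gli1+ ratio at 21 dpi was 0.53. Within followed mesenchymal clusters, the interval lay above 0 in 4 and below 0 in 1 of 6 at 7 dpi (-0.13 to 1.10). At 21 dpi it lay above 0 in 2, both Gli1+, and below 0 in 5 of 8 (-0.50 to 0.57), so that most clusters moved against the pools. Blood endothelial-like cells held 1985 CPM uninjured, 2392 CPM at 7 dpi and 3475 CPM at 21 dpi for Gli1+, and 1884, 2649 and 3445 CPM for Gli1-. Pericyte or smooth muscle-like cells held 2249.9, 2696 and 3608 CPM for Gli1+, and 2449.9, 3037 and 3472 CPM for Gli1-. Both vascular classes thus held more *Igfbp7* the later the library, but in the Gli1- sort this went with the change of clusters given for *Igf1r*. There, endothelial cluster 1 held 1774, 2123 and 1736 CPM over the 3 times and cluster 7 held 2980.2, 3047 and 3851 CPM, and pericyte cluster 8 held 1760.5, 1719 and 1691 CPM and cluster 6 held 3379.7, 3276 and 3518 CPM. Between uninjured tendon and 21 dpi, the intervals did not overlap in cluster 7 and overlapped in clusters 1, 6 and 8. At 21 dpi the endothelial log2 ratio was 0.81 (0.75 to 0.86) for Gli1+ and 0.87 (0.84 to 0.90) for Gli1-, and that of pericytes or smooth muscle 0.68 (0.61 to 0.76) and 0.50 (0.47 to 0.54).

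**Figure D4:**
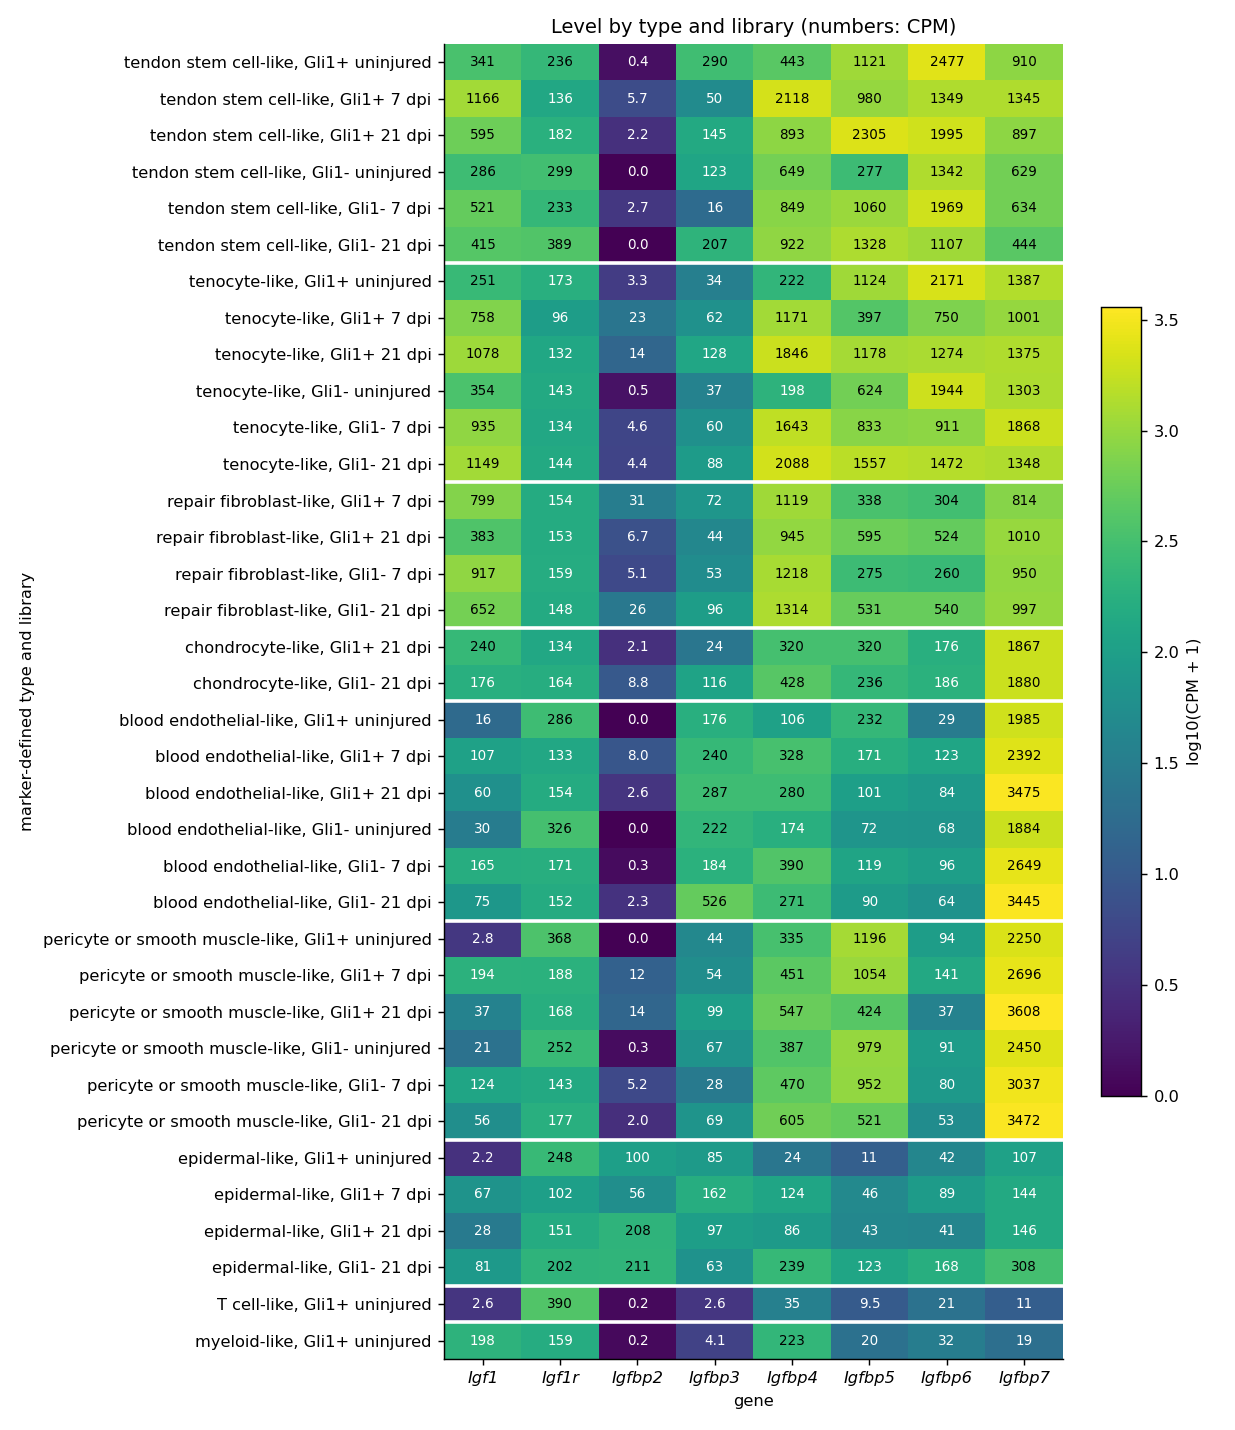
Level of the 8 genes (columns) in marker-defined types of each library with at least 50 cells (rows), coloured by log10(CPM + 1) and printed as CPM. Schwann-like, lymphatic endothelial-like, satellite cell-like and mast cell-like cells are not drawn. Among the rows drawn, *Igf1* and *Igfbp6* have their highest values in mesenchymal rows. The Schwann-like cells left out held *Igfbp6* at 456 to 723 CPM, above the 7 dpi repair fibroblast-like rows. *Igfbp7* is highest in blood endothelial-like and pericyte or smooth muscle-like rows, and *Igfbp2* in epidermal rows. The chondrocyte-like rows show low *Igf1*, *Igfbp4*, *Igfbp5* and *Igfbp6*.

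Chondrocyte-like cells, of interest because tenotomy is followed by ectopic cartilage and bone, reached 50 cells only at 21 dpi, with 295 Gli1+ and 420 Gli1- cells. Their clusters, Gli1+ 19 and Gli1- 13, were led by *Col2a1* and also by bone genes, *Bglap* and *Ibsp* in the first and *Ibsp* in the second. *Igf1* was at 240.2 CPM (226 to 255) for Gli1+ and 176 CPM (164 to 187) for Gli1- chondrocyte-like cells, beside 1078 and 1149 CPM in tenocyte-like cells of the same libraries. *Igfbp4* was at 320.1 and 428 CPM beside 1846 and 2088, *Igfbp5* at 319.8 and 236 CPM beside 1178 and 1557, and *Igfbp6* at 176 and 186 CPM beside 1274 and 1472. *Igfbp7* had the opposite order, at 1867 and 1880.3 CPM beside 1375 and 1348. *Igf1r* was at 134 (124 to 146) and 164 CPM (153 to 175) beside 132 and 144 CPM. In both sorts, then, these cells were below the tenocyte-like class as a whole in the ligand and 3 binding proteins, with the receptor near the level of that class. The smaller tenocyte-like clusters of these libraries were nearer to them in *Igf1*, *Igfbp4* and *Igfbp5*. Gli1+ cluster 6 (381 cells) held these 3 genes at 280, 367 and 541 CPM, and Gli1- cluster 11 (197 cells) at 552, 700 and 599 CPM. *Igfbp6* was at 1421 and 1502 CPM in these clusters. *Igfbp3* was not alike between the sorts, at 23.8 CPM for Gli1+ and 116 CPM for Gli1-, beside 128 and 88.5 CPM in tenocyte-like cells.

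To compare the sorts, the Gli1+ library was set against the Gli1- library at each time. In uninjured tendon, *Igfbp2* and *Igfbp5* were higher in Gli1+ mesenchymal cells, against 7.26% of all genes, and none was lower, against 3.08%. *Xist* alone marked 61.0% of these Gli1+ cells and 0% of the Gli1- cells, so that sort cannot be told apart from sex, or from differences between mice, over all cells. Within Y-linked cells the *Igfbp5* log2 ratio was 1.60 (1.56 to 1.65), and that of *Igfbp2*, 4.52 (1.36 to 10.1), rests on 5 and 1 UMIs. *Igfbp3* was there at -0.41 in place of 0.06, and *Igfbp7* at 0.22 in place of -0.10. These 2 pools differed in make-up: tenocyte-like cells were 29.3% of the Gli1+ and 4.87% of the Gli1- pool, tenocyte markers summed to 4115 and 556 CPM and bone markers to 1333 and 114 CPM, with none of either list at 0 in a pool. The part of this make-up in the calls was not tested. *Igfbp5* was at 1121 (Gli1+) and 277 CPM (Gli1-) in stem cell-like and at 1124 and 624 CPM in tenocyte-like cells, but these classes were not the same clusters in both sorts. Of the uninjured Gli1- tenocyte-like clusters, cluster 0 held 1130 CPM and cluster 11 held 248 CPM. Unnamed Gli1- cluster 3, led by *C7* and *Inmt*, held 409 CPM, and stem cell-like Gli1+ cluster 3, with the same 2 leading genes, held 1085 CPM. The *Igfbp5* log2 ratio was 1.71 (1.68 to 1.74), but 0.25 at resolution 1.0, where the mesenchymal rule kept 1651 of 2486 Gli1+ and 3249 of 5835 Gli1- cells, and just under 2-fold with 20 components. With a wider rule that kept such unnamed clusters at these settings, chosen after the data were seen, every 2-fold call of the 7 comparisons held. This rule returned nearly the cells of the main pools, with 2486 Gli1+ and 5825 Gli1- uninjured cells at resolution 1.0. Its outcome was thus close to fixed in advance and is no separate check of the calls. *Igfbp4* was lower at -0.87 (-0.90 to -0.84), or -1.13 with TMM scaling, which lowered each ratio of the uninjured pair by 0.26 and left 5.06% of all genes higher and 5.32% lower. At 7 dpi, *Igfbp2* alone was higher, at 2.75 (2.59 to 2.92), against 1.02% of all genes, and none was lower, against 0.739%. At 21 dpi it was again the 1 member past 2-fold, at 1.69 (1.53 to 1.85), against 0.402% of genes higher and 0.496% lower. *Igf1* was lower in Gli1+ cells at each time, at -0.37 (-0.41 to -0.33), -0.39 (-0.40 to -0.37) and -0.22 (-0.24 to -0.21), all within 2-fold.

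The rest of the IGF axis was read from a list of 31 further genes, of which 22 passed the low filter in mesenchymal cells. For this list only pooled levels were taken. Its ratios thus move with the make-up of the pools too, and levels inside types were not computed. For Gli1+, 3 were at least 2-fold higher and 6 lower at 7 dpi, beside 10% and 14.8% of all genes, and 2 higher and 4 lower at 21 dpi, beside 5.83% and 12.1%. For Gli1-, 3 were higher and 5 lower at 7 dpi, beside 11% and 11.2%, and 4 higher and 5 lower at 21 dpi, beside 9.57% and 11.1%. Scaling changed these counts. With TMM, 3 were higher and 3 lower in Gli1+ cells at 7 dpi, beside 16.8% and 9.41% of all genes, and 5 higher and 0 lower at 21 dpi, beside 15.3% and 5.11%. For Gli1- the TMM counts were 3 and 4 at 7 dpi, beside 12.9% and 9.71%, and 6 and 3 at 21 dpi, beside 12.7% and 8.58%. The list's median log2 ratio was -0.13, -0.29, -0.08 and 0.15 in these 4 comparisons. Between the sorts, 2 genes were higher in uninjured Gli1+ cells (*Pappa2* and *Grb14*) beside 7.26% of all genes, and none was lower, beside 3.08%. None of the list passed 2-fold between the sorts at 7 dpi, beside 1.02% of all genes higher and 0.739% lower, or at 21 dpi, beside 0.402% and 0.496%. TMM added *Adamts1* as lower in uninjured Gli1+ cells, beside 5.32% of all genes.

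**Figure D5:**
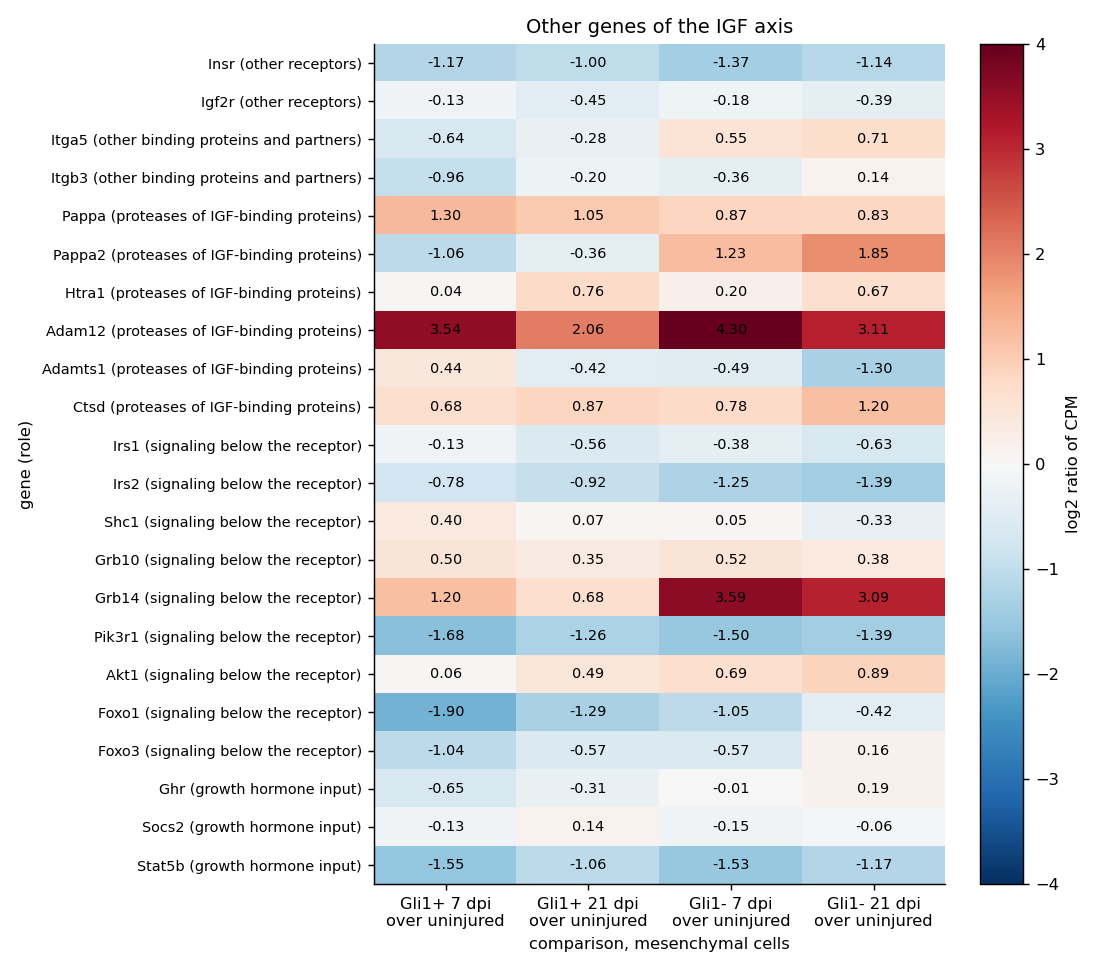
Log2 ratio of CPM over uninjured tendon in pooled mesenchymal cells for the 22 further IGF axis genes past the low filter (rows, with their role) in 4 comparisons (columns), red for higher and blue for lower. *Adam12* is highest, from 2.06 to 4.30, and *Insr*, *Pik3r1* and *Stat5b* are at least 2-fold lower in all 4 columns, a call that TMM scaling ends for *Insr* in 3 columns, for *Stat5b* in 2 and for *Pik3r1* in 1.

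Among proteases that cut binding proteins, *Adam12*, whose product cleaves IGFBP-3 and IGFBP-5, was at 25.7 CPM uninjured, 299.8 CPM at 7 dpi and 107 CPM at 21 dpi for Gli1+, and at 14.3, 282 and 123 CPM for Gli1-, highest at 7 dpi in both sorts and past 2-fold under either scaling. *Adam12* is also 1 of the markers that named the repair fibroblast-like class. That class was 0.201% (Gli1+) and 0.171% (Gli1-) of the uninjured pools and 55.5% and 40.5% of the 7 dpi pools. *Pappa*, encoding the protease of IGFBP-4, was at 31.3, 77.0 and 64.6 CPM for Gli1+ and at 45.7, 83.4 and 81.3 CPM for Gli1-, past 2-fold at both times for Gli1+, and for Gli1- at 21 dpi only with TMM scaling (1.01). *Pappa2* had opposite log2 ratios, -1.06 and -0.36 for Gli1+ and 1.23 and 1.85 for Gli1-, from an uninjured level 2.36 higher on the log2 scale in Gli1+ cells. With TMM scaling the Gli1+ values were -0.75, within 2-fold, and 0.11, of the same sign as in Gli1- cells. *Ctsd*, encoding cathepsin D, passed 2-fold in Gli1- cells at 21 dpi (1.20) and *Adamts1* was lower there (-1.30). With TMM scaling, *Ctsd* (1.35) and *Htra1* (1.24), encoding a secreted serine protease, also passed it in Gli1+ cells at 21 dpi. Of the other ligands, *Igf2* did not exceed 2.62 CPM in any pool, and it was among the 9 list genes below the low filter.

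Among receptors, signaling genes and growth hormone input genes of the list, those past 2-fold by total UMIs were lower, except *Grb14*. With TMM scaling, none was lower in Gli1+ cells at 21 dpi, and *Akt1*, encoding a kinase of the pathway, was higher in Gli1- cells at 21 dpi (1.08). *Pik3r1*, encoding the regulatory subunit of phosphoinositide 3-kinase, was at 235 CPM uninjured, 73.3 CPM at 7 dpi and 98.1 CPM at 21 dpi for Gli1+, and at 229.5, 80.9 and 87.4 CPM for Gli1-. The insulin receptor gene *Insr* was at 52.9, 23.5 and 26.4 CPM for Gli1+ and 57.3, 22.2 and 26.0 CPM for Gli1-. *Stat5b*, which carries the growth hormone signal, was at 67.3, 23.0 and 32.2 CPM for Gli1+ and 71.8, 24.9 and 32.0 CPM for Gli1-. All 3 were high in uninjured tendon and lower in both later libraries of each sort. *Foxo1*, a transcription factor restrained by IGF signaling, passed 2-fold downward at 7 dpi in both sorts (-1.90 and -1.05) and at 21 dpi in Gli1+ cells (-1.29), *Foxo3* at 7 dpi in Gli1+ cells (-1.04), and *Irs2*, a receptor substrate, in Gli1- cells at both times (-1.25 and -1.39). TMM scaling brought *Foxo1* within 2-fold in Gli1- cells at 7 dpi (-0.95) and Gli1+ cells at 21 dpi (-0.81), and *Foxo3* in Gli1+ cells at 7 dpi (-0.73). *Grb14*, an adaptor that inhibits insulin-type receptors, was higher, at 7.97, 18.3 and 12.8 CPM for Gli1+ and 1.49, 17.9 and 12.7 CPM for Gli1-, past 2-fold in Gli1+ cells at 21 dpi only with TMM scaling (1.16). The growth hormone receptor gene *Ghr* stayed within 2-fold, at 379, 241 and 306 CPM and 256, 253 and 291 CPM.

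Over the same 40 mesenchymal profiles, the 3 genes most like each member were found by Pearson correlation. For *Igf1* they were *Ctsb* (0.82), *Oat* and *Vcam1*, for *Igf1r* *Dnm2* (0.82), *Tcf7l1* and *Ino80*, and for *Igfbp2* *Bcl11b* (0.87), *Pcdh15* and *Robo2*. For *Igfbp4* they were *Sfrp1* (0.88), a secreted Wnt inhibitor, *Plac8* and *Cfi*, and for *Igfbp6* *Lamb2* (0.86), a laminin chain, *Itih5* and *Mettl7a1*. The likeness was lower for *Igfbp3* (*Enox1* at 0.69, *Fam219a*, *Hpse2*), *Igfbp5* (*Glud1* at 0.72, *Sfrp4*, *Lpgat1*) and *Igfbp7* (*Hspb2* at 0.67, *Dab2*, *Dbndd2*). Leading genes of the clusters richest in a member appear among these, such as *Hpse2* of Gli1+ cluster 20 and *Itih5* of Gli1+ cluster 23.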

How the data were processed

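Per the labels, cells of the mice of each time point were sorted and each fraction made into 1 library with Chromium Single Cell 3′ v3 chemistry. The authors deposited unnormalized UMI counts per gene for 8236 to 16437 barcodes a library. The submitters' processing notes name Cell Ranger 3.1.0, STAR and mm10, whereas the matrix headers name Cell Ranger 9.0.0. Of 33696 gene IDs, 31961 matched GENCODE M21, so the annotation release is unsettled and no file coordinates are given. Barcodes with at least 200 genes, 1000 UMIs, a log10 genes per log10 UMI ratio of 0.7 and under 5% mitochondrial and 5% hemoglobin UMIs were kept, and likely doublets were removed by a simulation-based score at 0.8% per 1000 cells. Each sort was clustered without batch correction (2000 variable genes, 30 components, 20 neighbours, Leiden 0.5, leidenalg 0.10.2), leaving out members, list genes, markers, *Xist* and Y-linked genes. A cluster took a class whose markers averaged a log2 enrichment of at least 1 with 3 or more raised, unless another class had more of the 10 leading genes. The mesenchymal limits (100 CPM *Pdgfra* and *Prrx1*, 1000 CPM *Col1a1* and *Dcn*) were set after seeing the data. UMIs were summed per library and class, with exact Poisson and binomial intervals (SciPy 1.17.1) for counting error only. The code was tested on simulated data. TMM came from edgeR 4.0.16, as an alternative. Alternatives varied scaling, filters, clustering, cells, averaging and sex. Named genes were the members, list genes past 2-fold, and the 3 most alike per member. Members and lists were chosen with earlier results of these data known. Clusters Gli1+ 22 (mast) and Gli1- 12 (lymphatic) also held genes of other types: they count in the class shares and are not described further.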

Additional observations from a re-analysis of the deposited data

Results flagged for a closer look

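For 2 of the 8 members the sorts moved in opposite directions under the same contrast, with both counting intervals clear of 0; with 1 library per condition the difference was not tested. For *Igfbp5* at 7 dpi over uninjured tendon, the log2 ratio in Gli1+ minus that in Gli1- mesenchymal cells was -1.72, from -1.12 and 0.60. The uninjured levels were 1049 CPM in Gli1+ and 321 CPM in Gli1- cells, and those at 7 dpi were 484 and 488 CPM. With 20 components the Gli1- ratio was -0.13, of the same sign as the Gli1+ ratio, and at resolution 1.0 the Gli1+ ratio was -0.27 and the Gli1- ratio 0.09. The stem cell-like cells of the uninjured libraries came from clusters with different leading genes, and their part in the difference was not tested. For *Igfbp7* at 7 dpi the same difference was -0.27, from -0.06 and 0.21, and TMM scaling turned the Gli1+ value to 0.25. Within Y-linked cells the 2 values were -0.35 and 0.22. Of the further IGF axis genes, *Pappa2* also had opposite ratios at 7 dpi, -1.06 and 1.23.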

How the results depend on the processing

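Of 22 ratios past 2-fold among the 56 member ratios, 17 to 22 stayed past 2-fold in the same direction under each alternative that could be computed for all of them. All 22 stayed with totals lacking *Cntn5*, mitochondrial and ribosomal protein genes, and without doublet removal. With TMM scaling 21 stayed, with the 6 libraries clustered together 21, at resolution 1.0 19, with a mean of per-cell CPM 20, and over all kept cells 17. In the joint clustering, 1 ratio within 2-fold in the main analysis passed it. Over all kept cells the log2 ratio of *Igfbp3* in Gli1+ at 7 dpi changed sign to 0.0678, and the count of members past 2-fold moved from 3 to 5 for Gli1+ 21 dpi over uninjured and from 2 to 5 between the sorts in uninjured tendon, while the share of all genes past 2-fold moved from 17.9% to 24.0% and from 10.3% to 18.8%. The count between the sorts was 2 in place of 1 at 21 dpi with resolution 0.3, where the mesenchymal rule kept 2251 of 8069 Gli1+ cells at 21 dpi and the share of all genes past 2-fold was 4.54% in place of 0.898%. It was 1 in place of 2 in uninjured tendon with 20 components, beside 9.83% in place of 10.3% of all genes. At resolution 0.3 the *Igf1* ratio of Gli1+ cells at 21 dpi was 0.91. With the wider rule for unnamed clusters, added after seeing the data, all 22 calls stayed at resolutions 0.3, 0.5 and 1.0, with 20 components and without cell filters. Except without cell filters, its pools held nearly the cells of the main pools, so that the calls were close to fixed in advance. Within 1 sex, 13 of 14 and 4 of 4 computable calls stayed, *Igfbp3* in Gli1+ at 7 dpi being the exception. The Gli1- 21 dpi ratio has no such value, since the uninjured library had 0 mesenchymal cells with *Xist* alone. Levels by type moved by over 1.5 times in 17 of 264 cases at resolution 0.3 and in 61 of 264 without cell filters. No paired analysis was run, because each comparison sets 1 library against 1 other and time points were not treated as replicates, and no library could be left out of a condition. Depth limits *Igfbp2* most, with 2 UMIs in uninjured Gli1- mesenchyme.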

Other observations

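In Schwann-like cluster 15 of the Gli1- libraries, led by *Cadm2* and *Kcna1*, *Igfbp5* was at 70.9, 1435 and 429 CPM over the 3 times, from 128, 50 and 91 cells, so that 7 dpi stood highest. Satellite cell-like cells, the stem cells of skeletal muscle, held *Igf1r* at 364 CPM (uninjured) and 466 CPM (21 dpi), from 126 and 54 cells. In uninjured Gli1+ tendon, the T cell-like cluster 15, led by *Lef1* and *Ccr7*, held *Igfbp4* at 165 CPM, and the 3 other T cell-like clusters held 5.51 to 8.99 CPM.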
